A study of Mus musculus with 2 samples.

Results

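A boundary of chromatin folding is a position across which few DNA contacts pass, and 140 such boundaries of mouse olfactory sensory neurons lay at a divergent pair of protein-coding promoters. A divergent pair was defined as 2 protein-coding transcription start sites (TSSs) on opposite strands, pointing away from each other and at most 1 kb apart. A boundary was counted when its interval, widened by 10 kb on each side, held at least 1 TSS of such a pair on an autosome of GRCm38. The 140 boundaries were 2.00% (95% Wilson interval 1.70 to 2.36) of the 6994 autosomal boundaries, which are part of a list of 7367. Among all 479316 autosomal bins of 5 kb, treated the same way, 0.744% held a pair, so boundaries did so 2.69 times as often. The strength of a boundary played no part in the choice.

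The boundaries come from in situ Hi-C with the enzyme DpnII, a method that ligates and sequences DNA ends lying close together in fixed nuclei. There was 1 group of 2 biological replicates, with 170000 and 220000 cells fixed in 1% formaldehyde. The cells were mature olfactory sensory neurons expressing the odorant receptor gene Olfr1507, sorted by fluorescence from the olfactory epithelium of adult MOR28-GFP mice of mixed sex on the 129P2/OlaHsd background, and the labels list neither a treatment nor a further modification. Both replicates were combined before boundaries were called, so no value has a replicate error, the depth behind a boundary is unknown, and no condition can be compared. The list holds no expression, so the cell type label could not be checked against marker genes. Intervals below are 95% intervals that cover counting error only, and boundaries and genes are not replicates.

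Divergent promoters are a common layout of mammalian genes, in which a single stretch of open, often CpG-rich chromatin serves a gene on each strand. The layout is known for housekeeping functions such as ribosome production, mitochondrial metabolism and DNA repair. Active promoters and sites of the insulator protein CTCF are both known to lie at domain boundaries, and cohesin-driven loops tend to stop at CTCF sites that point towards the loop. Boundary strength here is the authors' score, with weak boundaries below 0.5 and strong boundaries above it.

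The stretches between the 2 start sites are shown for the strongest boundaries whose stretch had 60 to 300 bases and no annotated exon (81 did), because they are the shared promoters that brought these boundaries into the set. Letters are from the GRCm38 reference, plus strand, and the gene named first runs to the left. Capitals mark exact matches, on either strand, to 7 short patterns of promoter factors. The GC box is GGGCGG, bound by Sp factors. The box of NF-Y is CCAAT. Factors of the ETS family bind CCGGAAG. NRF1 binds CGCATGCG, YY1 binds AAGATGGC and ZNF143 binds CTACANTTC. The core of the TATA box is TATAAA. Overlapping matches were all counted.
Polr3a-Rps24 (chr14:24487059-24487124): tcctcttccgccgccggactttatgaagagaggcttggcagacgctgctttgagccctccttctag
Mepce-Zcwpw1 (chr5:137787656-137787797): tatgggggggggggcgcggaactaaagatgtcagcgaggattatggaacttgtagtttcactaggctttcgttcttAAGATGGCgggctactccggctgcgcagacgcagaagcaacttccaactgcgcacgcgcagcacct
Ptcd2-Mrps27 (chr13:99344706-99344785): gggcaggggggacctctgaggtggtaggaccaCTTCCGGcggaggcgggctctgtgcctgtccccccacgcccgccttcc
Rer1-Morn1 (chr4:155086383-155086576): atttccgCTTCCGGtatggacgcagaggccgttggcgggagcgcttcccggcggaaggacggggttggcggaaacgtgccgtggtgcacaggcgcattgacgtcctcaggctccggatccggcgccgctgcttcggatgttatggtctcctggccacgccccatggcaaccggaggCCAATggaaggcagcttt
Bag1-Chmp5 (chr4:40948295-40948406): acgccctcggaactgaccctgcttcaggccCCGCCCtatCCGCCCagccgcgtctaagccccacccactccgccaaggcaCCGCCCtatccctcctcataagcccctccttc
Erg28-Ttll5 (chr12:85824551-85824658): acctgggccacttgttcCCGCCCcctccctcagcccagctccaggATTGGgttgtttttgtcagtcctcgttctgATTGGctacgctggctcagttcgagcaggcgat
Usmg5-Pdcd11 (chr19:47090648-47090767): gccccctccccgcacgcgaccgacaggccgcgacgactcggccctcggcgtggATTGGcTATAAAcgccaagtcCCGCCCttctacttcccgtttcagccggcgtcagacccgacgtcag
Srsf7-Ttc39d (chr17:80207308-80207459): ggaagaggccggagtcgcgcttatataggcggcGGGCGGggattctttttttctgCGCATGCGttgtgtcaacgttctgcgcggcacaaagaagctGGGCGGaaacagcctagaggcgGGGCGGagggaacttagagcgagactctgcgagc

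These 8 stretches were between 66 and 194 bases long. The stretch between Polr3a and Rps24 held no match to any of the 7 patterns, and its boundary was the strongest of the set. Bag1-Chmp5 held 3 GC boxes on the minus strand and Srsf7-Ttc39d held 3 on the plus strand. A TATAAA match was found in 1 of the 8, between Usmg5 and Pdcd11.

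**Figure D1:**
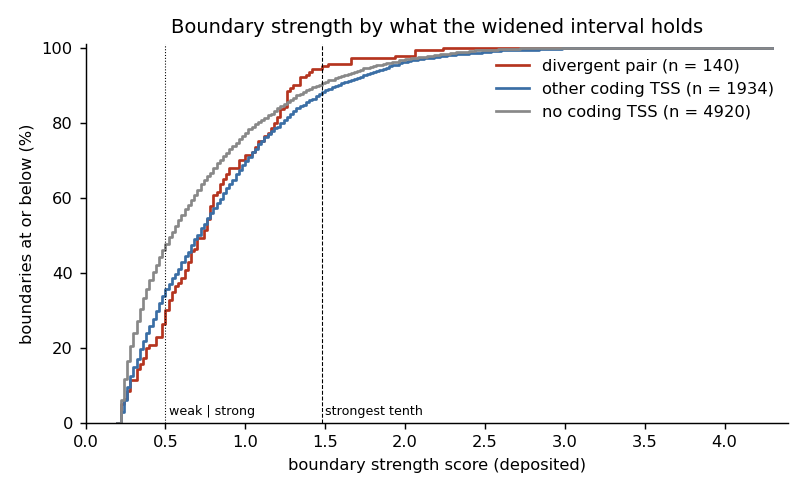
Cumulative share of boundaries (vertical axis, percent) at or below each strength score (horizontal axis, deposited score without unit) for the 140 boundaries at a divergent pair, 1934 at other coding TSSs and 4920 with no coding TSS in the window. The curve of the divergent pairs runs with that of other coding TSSs up to a score of about 1 and lies above both other curves at the dashed line, past which only 5.0% of the divergent boundaries fall.

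Boundaries at divergent promoters were mostly strong, yet few were among the very strongest. Of the 140, 98 belonged to the strong class (70.0%, 62.0 to 77.0) and 42 to the weak class, where 56% of all autosomal boundaries were strong. The share was 64.4% (62.3 to 66.5) at the 1934 boundaries with another coding TSS in the window, a difference of 5.57 percentage points whose Newcombe interval included 0 (-2.74 to 12.9). At the 4920 boundaries without a coding TSS the share was 52.3%, and the difference of 17.7 points (9.56 to 24.8) lay outside counting error. The set thus differed by more than counting error from boundaries without a coding TSS in the window, and not from those at other coding TSSs. Gene density moved with the first of these differences and is given with its values further on.

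Median strength followed the same order. It was 0.727 (0.624 to 0.786) at divergent promoters, with quartiles of 0.477 and 1.08 and a range of 0.20 to 2.23. The median was 0.698 (0.665 to 0.721) at other coding TSSs and 0.530 (0.509 to 0.547) without a coding TSS. The difference from other TSSs was 0.03 (-0.08 to 0.10), and from boundaries without a TSS 0.20 (0.09 to 0.26). The 393 boundaries with 2 or more coding TSSs but no divergent pair had a median of 0.710 (0.651 to 0.786), also within counting error of the divergent set. Groups without a pair by this definition could still hold promoters whose 5′ ends overlap head to head. Counting overlaps of up to 1 kb as pairs gave 230 boundaries with a median of 0.751 (0.656 to 0.832). Their difference from the remaining 1844 at other coding TSSs was 0.06 (-0.04 to 0.15).

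Fewer of the set than of boundaries at other coding TSSs were among the strongest boundaries. Only 7 of the 140 (5.0%, 2.44 to 9.96) were among the strongest 10% of autosomal boundaries, against 229 of 1934 (11.8%, 10.5 to 13.4) at other coding TSSs, a difference of -6.84 points (-9.81 to -1.70). The strongest 10% held 9.43% of the boundaries without a coding TSS. The difference of the set from these was -4.43 points, and its interval included 0 (-7.13 to 0.59). With 5′ ends that overlap head to head by up to 1 kb also counted as pairs, the share of the set was 7.39% (17 of 230, 4.67 to 11.5). The share was 6.25% with no widening of the window and 3.96% with 5 kb. With 20 kb it was 9.14% (18 of 197, 5.86 to 14.0), near that of all boundaries. These values lay within the interval of the reported share, so a dependence on the window was not shown. In all, 126 autosomal boundaries were stronger than the strongest member, 43 of them at another coding TSS and 83 without one. At the other end, 20 of the 140 (14.3%, 9.44 to 21.0) were in the weakest 25%, against 17.8% at other coding TSSs and 28.1% without one. The standard deviation over boundaries was 0.426 in the set and 0.539 at other coding TSSs.

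**Figure D2:**
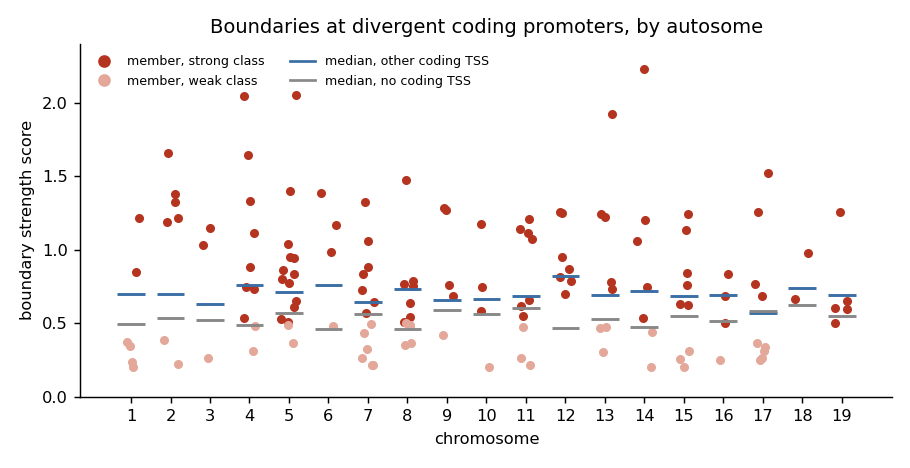
Strength score (vertical axis) of each of the 140 boundaries at a divergent coding promoter, by chromosome (horizontal axis, points spread sideways for visibility). Dark points are strong and light points weak boundaries, and the bars give each chromosome's median for boundaries at other coding TSSs and without one. Members range from 0.20 to 2.23 and fall on both sides of the bars on most autosomes.

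The autosomes serve as a spread of the comparison. Each autosome held between 2 and 15 members, and 18 held 3 or more. Over these 18, the median strength of members minus that of boundaries at other coding TSSs averaged 0.03 ± 0.21 (SD over autosomes), with 9 autosomes above 0 and 9 below. Against boundaries without a coding TSS the difference averaged 0.19 ± 0.24, with 16 autosomes above 0. Chromosome 2 lay at the upper end, where the 7 members had a median of 1.22 against 0.698 for other TSSs. Chromosome 1 lay at the lower end, where the 6 members had a median of 0.356 against 0.702.

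The strongest boundary of the set lay on chromosome 14 (24485001 to 24490000, strength 2.23, rank 127 of the autosomal list), at Polr3a (ENSMUSG00000025280.8) and Rps24 (ENSMUSG00000025290.17). Polr3a encodes the largest subunit of RNA polymerase III, and Rps24 a protein of the small ribosomal subunit. Their TSSs are 67 bp apart, the middle of the boundary lay 0.409 kb away in an intron of Rps24, and no other coding TSS lay within 100 kb. Its neighbours, 185 kb and 455 kb away, were weak boundaries of 0.241 and 0.359. This boundary stood alone in a gene-poor stretch.

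The next boundary, at Mepce and Zcwpw1 on chromosome 5 (137785001 to 137790000), had a strength of 2.05. Mepce caps the 7SK RNA that restrains transcription elongation, and Zcwpw1 reads histone methylation in meiosis. It lay in a dense region, with 6 other coding TSSs within 100 kb, and the middle of the boundary fell in an exon of Mepce. Cfap57-Ebna1bp2 on chromosome 4 had a strength of 2.04, but its pair lay 11.7 kb from the middle of the boundary, near the edge of the window. Cfap57 is a protein of motile cilia and Ebna1bp2 acts in ribosome production. These 3 were the only members above a score of 2.

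Ptcd2-Mrps27 on chromosome 13 had a strength of 1.93 and again no other coding TSS within 100 kb. Both genes act in mitochondrial gene expression, Mrps27 as a protein of the mitochondrial ribosome. Ppp1r3d-Fam217b on chromosome 2 had a strength of 1.66 and a gap of 3530 kb to the boundary on its left, the longest flank of the set. Ppp1r3d targets protein phosphatase 1 to glycogen. Rer1-Morn1 on chromosome 4 had a strength of 1.65, and its left neighbour was stronger still at 2.39. Rer1 is a receptor that returns membrane proteins to the endoplasmic reticulum.

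Rnf151-Rps2 on chromosome 17 had a strength of 1.52, with 5 coding TSSs in the window and 14 others within 100 kb. Rps2 is another protein of the small ribosomal subunit. Gm27021-Cox4i1 on chromosome 8 had a strength of 1.48, and Cox4i1 is a subunit of cytochrome c oxidase. The other strengths among the first 12 were 1.40 at Noc4l-Ddx51, 1.38 at Xpc-Lsm3, 1.38 at Wfdc3-Dnttip1 and 1.33 at Bag1-Chmp5. Noc4l and Ddx51 act in ribosome production, Xpc recognises damaged DNA, Lsm3 belongs to the ring around U6 RNA, and Chmp5 belongs to the ESCRT machinery. Beyond these, 40 of the 140 had a strength above 1 in all.

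Weak members also held genes of basic cell functions. There were 16 members below a score of 0.3. The lowest were Alg12-Creld2 on chromosome 15, Gamt-Dazap1 on chromosome 10 and Wdhd1-Socs4 on chromosome 14, each at 0.20. Alg12 adds mannose to protein glycans, Gamt makes creatine and Wdhd1 acts at the replication fork. Their pairs lay 3.02 kb, 1.25 kb and 4.39 kb from the middle of the boundary.

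**Figure D3:**
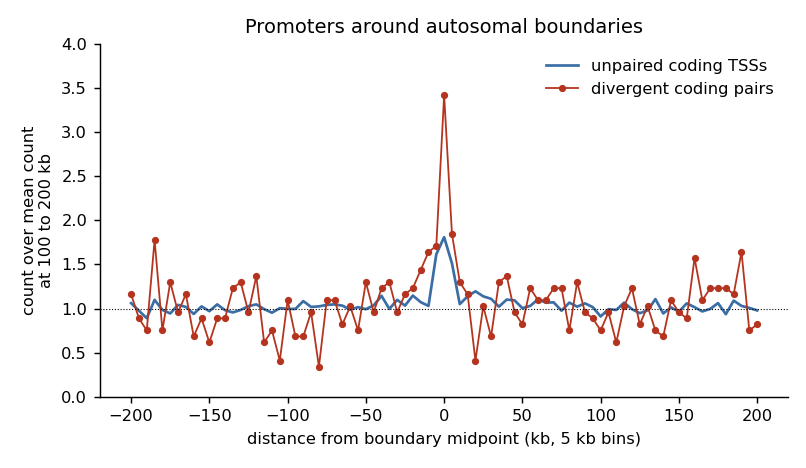
Number of divergent coding pairs and of unpaired coding TSSs in 5 kb bins (horizontal axis, distance from the boundary midpoint in kb), each divided by its mean number per bin 100 to 200 kb away (vertical axis, ratio). The bin at the midpoint reaches 3.42 for pairs and 1.81 for unpaired TSSs, and both return to about 1 within 50 kb.

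Divergent pairs were most frequent at the boundary midpoint. The bin of 5 kb at the midpoint held 50 pairs over all autosomal boundaries, where a bin 100 to 200 kb away held 14.6 on average, a ratio of 3.42 (exact Poisson interval 2.54 to 4.51). For unpaired coding TSSs the numbers were 634 and 350.3, a ratio of 1.81 (1.67 to 1.96). The bins on either side of the midpoint held 25 and 27 pairs. The peak was therefore higher for pairs than for unpaired TSSs by more than counting error.

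Within the set, the distance from the middle of the boundary to the middle of the nearest pair had a median of 4.00 kb, with quartiles of 1.67 and 7.72 kb. The closest was Ranbp10-Tsnaxip1 at 0.041 kb and the farthest Lypd4-Dmrtc2 at 12.5 kb. In 48 members (34.3%) the pair lay inside the 5 kb interval itself, and 39 of these were strong (81.3%, 68.1 to 89.8), against 59 of the 92 others (64.1%, 53.9 to 73.2). Their median strengths were closer, at 0.748 (0.610 to 0.868) and 0.688 (0.534 to 0.799).

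The boundary midpoint fell in an intron of an annotated gene in 99 members, in an exon in 28 and between genes in 13. It lay in the body of the minus strand gene of the pair in 61 members and of the plus strand gene in 58. It lay between the 2 TSSs in 2 members. The rule largely sets these counts, and other boundaries were not counted in this way. A midpoint lay at most 12.5 kb from its pair, the paired genes had a median length of 18.4 kb and the median gap was 117 bp. The midpoint was left of the pair in 74 members and right of it in 66, close to an even split. Strong boundaries made up 22 of the 28 in exons, 71 of the 99 in introns and 5 of the 13 between genes.

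Most members held no more than 2 coding TSSs in the window, and TSSs of noncoding genes were not counted. At Lypd4-Dmrtc2 the 2 were those of Lypd4 and Gm9844, since the TSS of Dmrtc2 lay just outside. The window held exactly 2 coding TSSs in 108 members and 3 or more in 32, and 136 members held 1 pair, 3 held 2 and 1 held 3. These counts follow the annotation, which holds 2 models each of Hgs and Chtf8, so that Arl16-Hgs and Chtf8-Utp4 count double here and among the genes of the set. At Dpm1-Mocs3 and 4933427D14Rik-Txndc17 the added pair came from a Gm model paired with the same plus strand gene, and only Oxld1-Ccdc137, beside Arl16-Hgs, was a further promoter. The 6 members Rnf151-Rps2, Slc39a7-Rxrb, Arl16-Hgs, Hist1h2bh-Hist1h3f, Lmf2-Ncaph2 and Nek8-Tlcd1 held the maximum of 5 TSSs (for Arl16-Hgs with Hgs counted double), and their strengths were 1.52, 0.769, 0.614, 0.469, 0.314 and 0.261. Members with 3 or more TSSs had a median strength of 0.803 (0.491 to 1.14), against 0.692 (0.610 to 0.771) for those with 2. The intervals overlap.

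Seen from the genes, a divergent pair was in a boundary window more often than a coding TSS in no such pair. Of 735 autosomal divergent pairs, 145 were in a window (19.7%, 17.0 to 22.8), against 2459 of the 19357 coding genes in no such pair (12.7%, 12.2 to 13.2). The difference was 7.02 points (4.27 to 10.1) and the ratio 1.55 (1.34 to 1.81). Promoters whose 5′ ends overlap head to head did not count as pairs here. Counting overlaps of up to 1 kb as pairs gave a ratio of 1.68 (1.49 to 1.89). By autosome the difference averaged 7.12 ± 6.01 points (SD over 19 autosomes) and was above 0 on 16 of them. The pairs hold 1450 genes, or 6.97% of the 20807 autosomal coding genes.

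**Figure D4:**
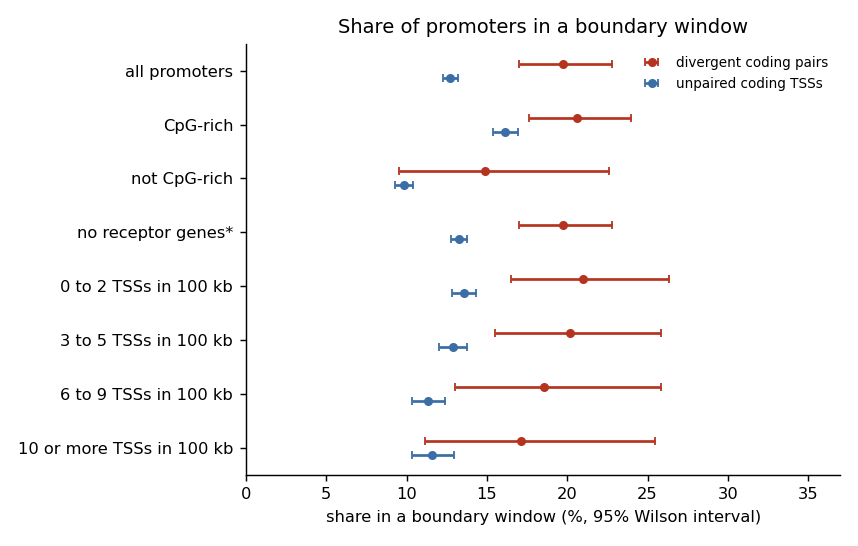
Share of divergent coding pairs and of unpaired coding TSSs that lie in a boundary window (horizontal axis, percent, with 95% Wilson intervals), for all promoters, by CpG content, without receptor genes (the asterisk marks that unpaired odorant and vomeronasal receptor genes were left out), and by the number of other coding TSSs within 100 kb. Pairs lie to the right of unpaired TSSs in each row, by 7.02 points over all and 4.47 points among CpG-rich promoters.

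Promoter type moved with this result. Promoters were called CpG-rich when the 600 bp around them had over 50% GC and an observed over expected CpG ratio over 0.6. By this measure 128 of the 145 pairs at boundaries were CpG-rich (88.3%), as were 83.6% of other pairs, 57.8% of unpaired TSSs at boundaries and 43.7% of other unpaired TSSs. Among CpG-rich promoters alone, 20.6% of pairs and 16.1% of unpaired TSSs were in a window, a difference of 4.47 points (1.37 to 7.91) and a ratio of 1.28. Among the others the shares were 14.9% (17 of 114 pairs) and 9.83%, and the difference of 5.08 points had an interval that included 0 (-0.34 to 12.8). The part of CpG content in the excess was not tested beyond this split, which was chosen after the data were seen.

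The difference was also seen within classes of local gene density. With 0 to 2 other coding TSSs within 100 kb, 21.0% of pairs and 13.6% of unpaired TSSs were in a window, a difference of 7.43 points (2.86 to 12.8). With 3 to 5 it was 7.31 points (2.53 to 13.1), and with 6 to 9 it was 7.23 points (1.55 to 14.5). With 10 or more it was 5.57 points, and its interval included 0 (-0.60 to 14.0). Leaving out the odorant and vomeronasal receptor genes, which are almost never paired, left a difference of 6.47 points (3.70 to 9.54). Among CpG-rich promoters alone the differences in the same density classes were smaller, at 5.06 (0.04 to 10.99), 4.33 (-0.91 to 10.6), 6.10 (-0.73 to 14.7) and 1.75 points (-5.27 to 11.5), and 3 of the 4 intervals included 0.

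Shares were close for all gaps between the 2 TSSs. Of pairs at most 100 bp apart 20.2% were in a window, of those above 100 and up to 200 bp apart 20.5%, of those up to 500 bp apart 18.8% and of those up to 1 kb apart 17.6%, with overlapping intervals throughout. Just outside the rule, 16.3% (10.5 to 24.6) of the 104 divergent pairs above 1 and up to 2 kb apart were in a window, and 22.0% (18.4 to 26.1) of the 445 pairs whose 5′ ends overlap head to head by up to 1 kb. The smallest gap in the set was 10 bp, between Zdhhc3 and Exosc7 (strength 0.422), and the largest 987 bp, between Btf3l4 and Txndc12 (strength 0.538). The median gap was 117 bp for pairs at boundaries and 129.5 bp for other pairs.

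Promoter sequences were compared between pairs at boundaries, other pairs and all coding TSSs. In the 600 bp around the pair, the GC content had a median of 63.0% at boundaries and 62.2% elsewhere, against 57.0% at all coding TSSs. The GC box GGGCGG was found in 83.4% of pairs at boundaries, 81.4% of other pairs and 55.8% of all coding TSSs. CCGGAAG was found in 38.6%, 36.1% and 16.0%, CGCATGCG in 9.66%, 6.44% and 2.90%, and AAGATGGC in 13.8%, 11.5% and 5.39%. TATAAA went the other way, with 8.97%, 7.12% and 19.4%. CCAAT was spread evenly, at 56.6%, 57.1% and 53.4%, and CTACANTTC was rare, at 2.76%, 5.93% and 2.78%. The intervals of pairs at boundaries and other pairs overlapped for each pattern, and a match is a description of the letters only.

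A match to the core consensus of CTCF was found in the window of 41 members (29.3%, 22.4 to 37.3), where 24.6% of all autosomal boundaries had one. The share was 27.4% at other coding TSSs and 23.4% without a coding TSS, so the set did not stand apart by more than counting error. A match within 1 kb of the promoter was rare everywhere, at 2 of the 145 pairs (1.38%), 0.678% of other pairs and 1.75% of all coding TSSs. Members with a match in the window had a median strength of 0.835 (0.655 to 1.11) and those without one 0.663 (0.570 to 0.762). Within 50 kb, matches left of the boundary were on the forward strand in 26 of 76 cases (34.2%, 24.5 to 45.4) and matches right of it in 58 of 80 (72.5%, 61.9 to 81.1). The matches thus mostly pointed into the flanking domains, as they did at other coding TSSs with 31.7% and 63.3%.

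**Figure D5:**
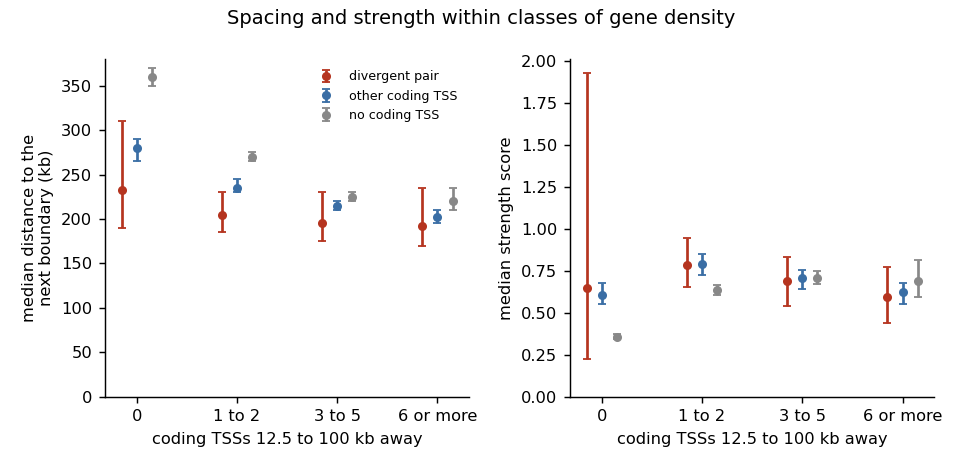
Median distance to the next boundary (left, kb) and median strength score (right) for boundaries at a divergent pair, at other coding TSSs and without a coding TSS, in classes of the number of coding TSSs 12.5 to 100 kb away (horizontal axes). Bars are 95% order-statistic intervals of the median, and the distance falls from left to right in all 3 sets, from 232.5 to 192.5 kb at divergent pairs.

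Boundaries at divergent promoters were closely spaced. The distance to the next boundary had a median of 200 kb (190 to 220) over the 280 flanks, with quartiles of 155 and 275 kb. It was 230 kb (225 to 235) at other coding TSSs, 215 kb (205 to 220) at boundaries with 2 or more TSSs and no pair, and 285 kb (280 to 290) without a coding TSS. Flanks of 500 kb or more made up 9 of the 280 (3.21%), against 7.86% at other coding TSSs and 20.7% without one. The shorter flank of a member had a median of 165 kb and the longer one 265 kb. The shortest flanks were 65 kb, at Recql4-Lrrc14 and Enkur-Thnsl1.

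By autosome the flanks of members were shorter than those of boundaries without a coding TSS on 18 of the 18 autosomes with 3 or more members, by 71.0 ± 31.5 kb on average (SD over autosomes). Against other coding TSSs the mean difference was -14.2 ± 28.1 kb, with members shorter on 13 of 18. Chromosome 18, with 2 members, was left out of both counts and went the other way, with medians of 305 kb for members, 260 kb at other coding TSSs and 275 kb without one. Their neighbours had a median strength of 0.680, and 14 members had another member as a neighbour. Members were stronger than both neighbours in 54 of 140 cases (38.6%), close to the 701 of 1921 (36.5%) at other coding TSSs.

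Several other genes lay around most of these boundaries. Without the genes of the pair, a member had a median of 2 other coding TSSs within 50 kb of its midpoint, 3 within 100 kb (quartiles 2 and 7, range 0 to 16) and 17 within 500 kb (quartiles 10.8 and 30.3, range 2 to 59). Outside the window, from 12.5 to 100 kb, the median was 3 coding TSSs, against 2 at other coding TSSs, 4 at boundaries with 2 or more TSSs and no pair, and 1 without a TSS. No coding TSS lay in that ring at 11 members (7.86%), at 17.4% of boundaries with another coding TSS and at 37.2% of those without one. At the crowded end, Wfdc3-Dnttip1 and Hist1h2bh-Hist1h3f each had 16 other coding TSSs within 100 kb.

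Gene density moved with spacing and with strength. From 0 over 1 to 2 and 3 to 5 up to 6 or more TSSs in the ring, the median flank of members was 232.5, 205, 195 and 192.5 kb, and that of boundaries at other coding TSSs 280, 235, 215 and 202.5 kb. Members had the shorter median in each class, but their intervals overlapped or touched those of other coding TSSs in every class. The median strength of members over the same classes was 0.649, 0.787, 0.692 and 0.592, and that of boundaries without a coding TSS 0.354, 0.636, 0.708 and 0.692. Members thus had the higher median with up to 2 TSSs in the ring and the lower one with 3 or more, and the intervals overlapped in every class. The 11 members with an empty ring had the widest interval, 0.223 to 1.93. The part of gene density in the pooled difference was not tested beyond this split.

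The pairs at boundaries hold 286 genes, and 60 of them fell into 1 of 25 classes set by gene symbol. The other 226 fell into none, as did 1146 of the 1450 genes in divergent pairs and 16511 of all 20807 coding genes. These shares are close, so the set did not stand apart in how many of its genes were classed. Over all classes, 19.7% of the genes in divergent pairs were at a boundary, which is the level to read the classes against. The classes are small, none was tested, and a symbol pattern misses genes such as Xpc. The set held genes of many of these classes, with few from any 1 class, and their expression was not measured.

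Genes of protein synthesis were present at both ends of the strength scale. Of 9 cytosolic ribosomal protein genes in divergent pairs, 4 were at a boundary: Rps24 (strength 2.23), Rps2 (1.52), Rpl9 (1.04) and Rps27 (0.266). Of 18 mitochondrial ribosomal protein genes in pairs, 3 were at a boundary, with Mrps27 at 1.93, Mrps18b at 0.366 and Mrpl2 at 0.266. Of 7 translation factor genes in pairs, 3 were at a boundary, namely Eef1d (1.13), Eif1a (0.981) and Eif5b (0.201). No tRNA synthetase gene was, of 5 in pairs.

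Mitochondrial respiration was represented by 5 of the 18 paired genes of the respiratory chain and ATP synthase. They included Cox4i1 (1.48), Sdhd (0.762), Uqcrh (0.732) and Uqcrq (0.547), each at a strong boundary. Sdhd, which anchors succinate dehydrogenase in the membrane, shares its promoter with Timm8b, which helps import proteins into mitochondria. Both sides of that promoter serve the same organelle.

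RNA synthesis and processing gave Polr3a (2.23), Taf9 (0.731), Gtf2h5 (0.688) and Polr2l (0.216), which are 4 of 24 paired genes of the transcription machinery. They encode subunits of RNA polymerases III and II and of the general factors TFIID and TFIIH. Of 17 paired splicing genes, 3 were at a boundary, with Lsm3 at 1.38, Srsf7 at 1.25 and Hnrnpdl at 0.487. Of 17 paired genes of DNA replication and repair, 3 were at a boundary, with Ercc8 at 1.23, Pole at 0.527 and Rad51c at 0.475. Ercc8 acts in transcription-coupled repair, Pole is the catalytic subunit of a replicative polymerase and Rad51c acts in recombination.

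Protein turnover and folding had the largest class by number, the ubiquitin system with 10 of 30 paired genes. Their strengths ran from 0.256 at Fbxl6 to 1.52 at Rnf151, and Fbxo44-Fbxo2 (0.311) joins 2 F-box genes at a single promoter. The deubiquitinase gene Usp5 was at 0.986 and Cul4a, a scaffold of ubiquitin ligases, at 0.541. Of 13 paired chaperone genes, Cct3 (1.15) and Dnajb1 (0.512) were at a boundary. None of the 7 paired proteasome genes was. Paired or not, 16 of all 49 proteasome genes (32.7%) had a TSS in a boundary window, where 13.2% of all coding genes did. This was not particular to them, with 34.6% of cytosolic ribosomal protein genes, 33.8% of translation factor genes and 28.8% of chaperone genes. Other classes lay below the share of all genes, such as odorant receptors at 5.94%.

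Cilia matter to these neurons, whose odorant receptors sit on cilia. Of 18 paired genes with cilium symbols, 4 were at a boundary (22.2%), near the 19.7% over all paired genes. Cep95 was at 1.14, Ift46 at 0.688, Tctn3 at 0.597 and Cep57l1 at 0.583. Cep95 and Cep57l1 were included by the symbol Cep alone, and the pattern missed Cfap57, which is in the set. Ift46 belongs to the intraflagellar transport train and Tctn3 to the ciliary transition zone. Vesicle traffic had 4 of 15, with Snx1 at 1.27, Vps53 at 0.656, Trappc2l at 0.366 and Rab13 at 0.266. Mitochondrial transport had 2 of 9, Slc25a40 at 0.799 and Timm8b at 0.762.

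Genes with zinc finger symbols gave 3 of 26 paired genes, with Zbtb8os at 0.883, Zfp319 at 0.752 and Zfp526 at 0.494. Zbtb8os is named for lying opposite a zinc finger gene and encodes no such protein. The symbol pattern for chromatin regulators gave 1 of 6, Setd3 (0.868), an actin methyltransferase, and missed Brd8, Brd9, Bap1, Baz2b, Rbbp4 and Asf1b, which are in the set. Replication-dependent histone genes are often paired, 27 of 67, and 4 of the 27 were at 2 weak boundaries, Hist1h2bh-Hist1h3f (0.469) and Hist1h2ba-Hist1h2aa (0.307). Solute carriers gave Slc39a7 (0.769) and Slc52a2 (0.256), 2 of 12, and the class of Tmem symbols gave 3 of 23, the strongest being Tmem251 at 0.696. None of 1128 odorant receptor genes, 53 keratin genes or 90 genes with the homeobox symbols searched (such as Hox, Dlx and Lhx) was in a divergent pair. Prox2, a homeobox gene outside those symbols, was at a boundary with Dlst (0.949). The single paired gene each of the vomeronasal receptors, cytochromes P450 and protocadherins was not at a boundary.

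Of 44 marker genes of the olfactory epithelium, 1 of them off the autosomes, 3 were in divergent pairs. None of these pairs was in a boundary window, which says little with 3 pairs and a share of 19.7% over all pairs. Of the unpaired autosomal markers, 7 had a TSS in a boundary window, namely Gng13, Umodl1, Lhx2, Ebf3, Emx2, Atf5 and Ehmt1. The share over all unpaired coding genes was 12.7%, and the markers were not tested against it. Several well-known divergent pairs were also elsewhere. Tbp-Psmb1, Prkdc-Mcm4, Atm-Npat and Brca1-Nbr1 met the definition, but their nearest boundaries were 72.7, 120, 114 and 30.4 kb away. On the X chromosome, which the definition leaves out, 2 of 20 pairs were at a boundary.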

How the data were processed

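The authors combined the contacts of both Hi-C replicates into 1 matrix on GRCm38 and called boundaries from it, per the series' design text. Each deposited boundary has an interval of 5000 bp, a class and a strength score. The sources used here give neither its scale nor the caller, aligner and read filters. Contact matrices and the tracks of insulation and compartments were not used here. The list gives no counts, so depth is unknown, and replicates cannot be separated.

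The boundaries were joined to the GENCODE M21 annotation and the GRCm38 sequence, which is of another mouse strain, with Python 3.11.15, numpy 2.4.6 and scipy 1.17.1. Gene models gave the TSS as their 5′ end. The CTCF pattern was a consensus of 12 bases, searched on both strands. Shares have Wilson intervals, their differences Newcombe intervals, ratios Katz intervals and medians order-statistic intervals. No test was run, since 1 pooled list has no replicate error. The pair finder was tested on a made-up annotation, where it found 40 of 40 planted boundaries. Gene classes came from symbol patterns and marker genes from a list. Named pairs were those at the 12 strongest and 3 weakest boundaries, up to 3 per class, those with most TSSs, extreme gaps and textbook pairs; a few others were named after their values were seen. The members and lists were chosen with earlier results of these data known. Alternatives were other windows, gaps and TSS definitions, strong boundaries alone, and sets without unnamed models or histones.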

Additional observations from a re-analysis of the deposited data

How the results depend on the processing

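Of 133 values under other settings, 108 kept their direction and stayed within counting error of the reported ones. The difference in median strength from boundaries at other coding TSSs, 0.03 as reported, turned to -0.013 with a window of 5 kb, -0.0096 with gaps up to 2 kb, -0.0097 without unnamed gene models and -0.11 among strong boundaries only, and each interval included 0, so this difference has no settled direction. Several values moved with the width of the window. The width sets which TSSs count, how far from the midpoint a pair can lie and the span searched for CTCF matches. A rise with the width is thus largely built into the share in the set, the share of pairs, the distance and the CTCF share. The cause of the changes in the strong share and in the ratio was not tested. With no widening, the share of boundaries in the set was 0.686%, the strong share 81.3%, the share of pairs in a window 6.80%, their ratio to unpaired TSSs 2.08, the median distance 1.12 kb and the share with a CTCF match 4.17%. With 5 kb, the share in the set was 1.44%, of pairs 14.0%, the distance 2.76 kb and the CTCF share 21.8%. With 20 kb they were 2.82%, 28.3%, 7.26 kb and 48.2%. All transcript starts gave a share in the set of 3.07% and overlapping heads 3.29%. Among strong boundaries only, it was 2.5%, with a median strength of 0.855, 13.9% of pairs in a window and a median flank of 327.5 kb. Chosen after seeing the data, the ratio of pairs to unpaired TSSs was 1.28 among CpG-rich promoters and 1.49 without receptor genes, and the share among the strongest 10% ran from 3.96 to 9.14% over the 12 alternatives. No paired analysis was possible because both replicates were combined before boundaries were called, and for the same reason no replicate could be left out. The unknown depth of the map limits how small a spacing could be seen.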
